A study of Mus musculus with 6 samples.

Results

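The colony-stimulating factor receptors are represented here by 5 genes, Csf1r, Csf2ra, Csf2rb, Csf2rb2 and Csf3r, out of 18194 genes that the array measured under a single platform gene symbol. They were taken by symbol, with all 9 probe sets that carry a single symbol, and the probe set with the highest mean log2 level stood for each gene. The members were picked with the difference between the sorted groups known, so their levels and differences are given as a description and carry no test. Total RNA came from lineage-negative, cKit-positive, Sca1-positive bone marrow cells, the fraction that holds blood stem cells and multipotent progenitors. It was hybridised to 6 Affymetrix arrays, 3 of GFP-positive and 3 of GFP-negative cells. All mice were 6 weeks old and of the genotype Hes1 GFP/WT, so cells of both groups carried 1 reporter allele at Hes1, a repressor in the Notch pathway, and were untreated as far as the labels say. In each group the labels give a female source for replicate 1 and male sources for the rest. No label states whether separate animals were used, and standard errors and p-values therefore cover the spread between these samples only.

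Colony-stimulating factors instruct blood progenitors to survive, divide and mature along the myeloid lineages. Csf1r is a receptor tyrosine kinase for the macrophage factor CSF1 and for IL-34. The granulocyte-macrophage factor binds the alpha chain encoded by Csf2ra, which signals through the common beta chain Csf2rb. That chain is shared with the receptors for IL-3 and IL-5, and the mouse has a closely related beta chain for IL-3 alone, Csf2rb2. Csf3r is a homodimeric receptor for the granulocyte factor. The beta chains and Csf3r have no kinase of their own and signal through Jak kinases and STAT factors. In bone marrow, Csf1r and Csf3r are known as surface features of the route to monocytes and granulocytes, and the transcription factor PU.1, encoded by Spi1, is known to bind the control regions of several of these genes through a purine-rich core.

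The receptor promoters are shown because PU.1 is a common regulator of the family and its own transcript is described below. RefSeq promoter sequence (GRCm38.p6) was at hand for 3 of the 5 genes, and the 250 bases before the start site are printed 5′ to 3′ on the gene's strand. Capitals mark each GAGGAA, or its complement TTCCTC, the core letters bound by PU.1 and other ETS factors. The Csf2ra stretch is chr19:61228419-61228668 on the minus strand, that of Csf2rb2 chr15:78305722-78305971 on the minus strand, and that of Csf3r chr4:126024409-126024658 on the plus strand.
Csf2ra: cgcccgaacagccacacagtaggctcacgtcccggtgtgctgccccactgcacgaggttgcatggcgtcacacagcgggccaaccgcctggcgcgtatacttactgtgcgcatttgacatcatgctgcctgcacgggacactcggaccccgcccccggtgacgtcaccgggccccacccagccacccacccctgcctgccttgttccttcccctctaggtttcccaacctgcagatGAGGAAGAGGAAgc
Csf2rb2: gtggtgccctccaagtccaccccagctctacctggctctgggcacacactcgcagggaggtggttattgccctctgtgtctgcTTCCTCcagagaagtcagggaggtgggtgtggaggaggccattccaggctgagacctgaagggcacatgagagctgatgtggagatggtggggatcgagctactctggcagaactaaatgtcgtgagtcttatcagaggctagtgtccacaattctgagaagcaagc
Csf3r: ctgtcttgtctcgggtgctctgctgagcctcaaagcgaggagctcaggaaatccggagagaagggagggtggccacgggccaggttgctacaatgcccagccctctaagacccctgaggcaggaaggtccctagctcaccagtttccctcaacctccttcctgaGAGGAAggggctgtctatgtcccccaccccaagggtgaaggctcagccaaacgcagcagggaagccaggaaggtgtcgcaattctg
All 3 stretches held the core, but its letters were chosen after matches had been seen, so nothing is read from this count. In Csf2ra it occurred in tandem, 14 to 9 and 8 to 3 bases before the start, in Csf3r once, 86 to 81 bases before it, and in Csf2rb2 once on the other strand, 167 to 162 bases before it. Of 32851 promoter stretches of the same length, 23.3% held GAGGAA on either strand, so the match is common. The longer AGAGGAA, which contains it, was found in 2 of the 3 and in 8.55% of all. Other letters were found in 0 of the 3 on either strand. Among them, the ETS core GGAAGT occurred in 19.7% of all promoters. Its longer form GAGGAAGT, which contains that core and overlaps the one in capitals, occurred in 2.44%. The RUNX core TGTGGT was present in 14% and, with a further base at its end, TGTGGTT in 4.4%. The C/EBP form TTNNGCAA was present in 9.56%. A match describes letters only, and no binding was measured.

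All 5 receptor genes had a lower mean in GFP-positive than in GFP-negative cells, as did 48.7% of all genes tested. Csf1r stood furthest apart, 4.6-fold higher in GFP-negative cells, followed by Csf2rb2 at 1.75-fold, Csf3r at 1.63-fold, Csf2rb at 1.44-fold and Csf2ra at 1.39-fold. In Csf1r and Csf3r, 2 of the 5, every GFP-positive array lay below every GFP-negative array, which held for 5.51% of all genes. Because the genes were picked on this contrast, nothing is read from these counts. The median log2 difference, GFP-positive minus GFP-negative, was -0.71 over the 5 receptors and 0.01 over all genes. In whole sorted populations, fewer cells that carry a receptor and less of its RNA per cell cannot be told apart.

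**Figure D1:**
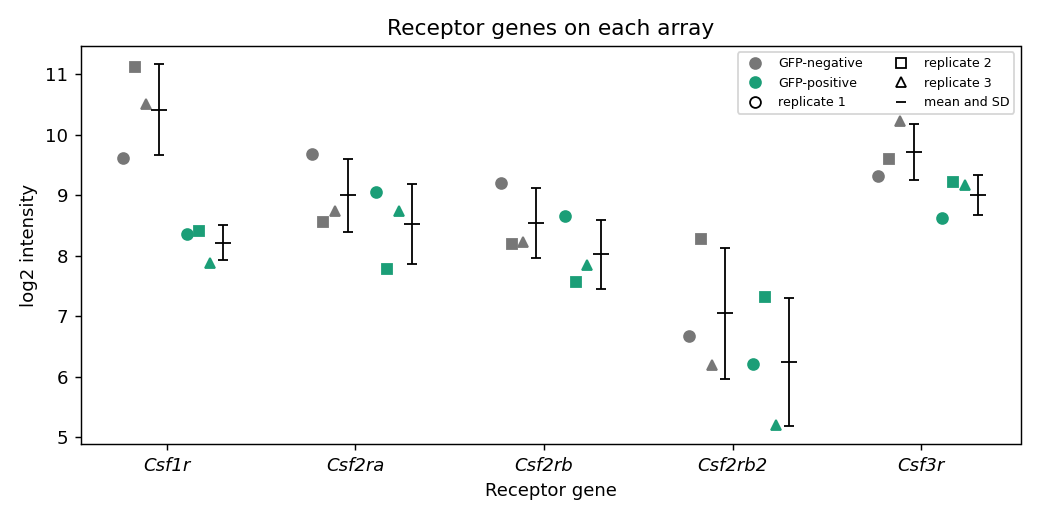
Log2 intensity (vertical axis) of the probe set standing for each receptor gene (horizontal axis) on the 3 GFP-negative (grey) and 3 GFP-positive (green) arrays, with marker shapes for replicate numbers and bars for mean and SD. Csf1r shows a wide gap between the groups, Csf3r a narrow one, and the other 3 genes overlap.

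Csf1r, which sustains monocytes and macrophages, read 9.62, 11.12 and 10.52 (log2 intensity) on the GFP-negative arrays, in the order of their replicate numbers, and 8.36, 8.41 and 7.88 on the GFP-positive arrays. Values below follow the same order. The lowest GFP-negative array, from the female, lay above the highest GFP-positive one. The group means were 10.42 ± 0.75 (SD, n = 3) and 8.22 ± 0.29, a log2 difference of -2.20 ± 0.40 (SE). A difference of at least that size, in either direction, was seen in 0.561% of all genes. That share holds for the probe set standing for Csf1r only, and nothing is read from it because the gene was picked on this contrast. The Csf1r difference ranged from -2.60 to -1.85 when each array was left out in turn. In the replicate 1 arrays, from females, the difference was -1.26 and in the 4 male arrays -2.67. With 1 female array per group, no test of these values against each other was made.

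The size of the Csf1r difference depended on the probe set. The array carries 3 for this gene: 1419872_at, given above, 1419873_s_at and 1423593_a_at. On 1419873_s_at, whose suffix marks probes that can match several transcripts, the GFP-negative arrays were at 8.42, 8.42 and 7.64 and the GFP-positive ones at 7.49, 7.60 and 5.77. The groups again did not overlap, though by a narrow margin, and the difference was -1.21 ± 0.55 (SE). On 1423593_a_at the GFP-negative arrays were at 6.84, 6.86 and 6.97, and the GFP-positive ones at 7.48, 6.68 and 5.86. Here GFP-positive replicate 1 was the highest of the 6 arrays and the difference was -0.22 ± 0.41. Over the 6 arrays the first probe set correlated with the second at Pearson r = 0.71 and Spearman rho = 0.94, and with 1423593_a_at at r = 0.32 and rho = 0.37. These points share the division into groups and the replicate numbers. All 3 probe sets had a lower GFP-positive mean, with differences that span -2.20 to -0.22.

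**Figure D2:**
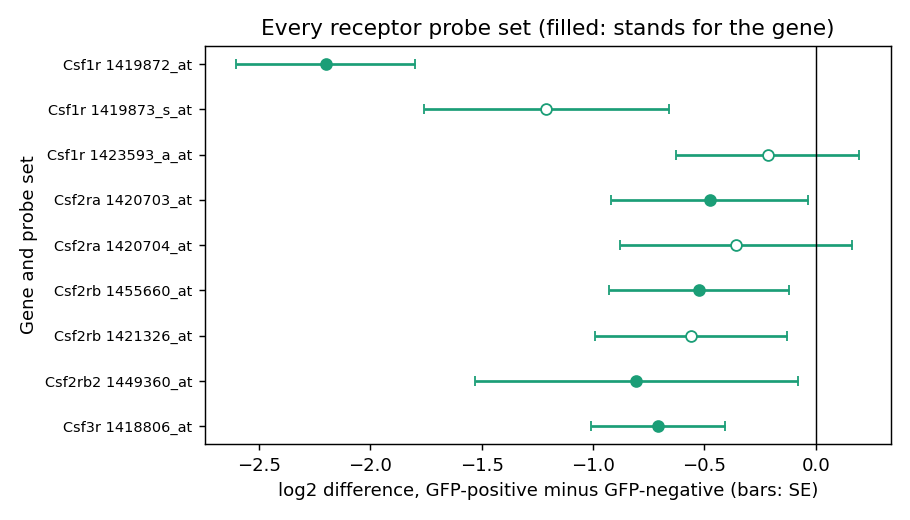
Log2 difference, GFP-positive minus GFP-negative (horizontal axis), of each of the 9 receptor probe sets (vertical axis), with bars for the standard error and filled points for the probe set that stands for its gene. All 9 points lie below 0, and the 3 Csf1r probe sets run from -2.20 to -0.22.

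Csf3r, the receptor for the granulocyte factor, was at 9.32, 9.60 and 10.23 in the GFP-negative arrays and at 8.62, 9.23 and 9.17 in the GFP-positive arrays. The groups were separated only just, with GFP-positive replicate 2 at 9.23 under GFP-negative replicate 1 at 9.32. The means were 9.71 ± 0.47 (SD, n = 3) and 9.01 ± 0.33, a log2 difference of -0.71 ± 0.30 (SE). Without GFP-negative replicate 3, the highest array, the difference was -0.45. Csf3r has a single probe set, 1418806_at, so no second reading of it was available.

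Csf2ra, the ligand-specific alpha chain for the granulocyte-macrophage factor, read 9.69, 8.56 and 8.75 without GFP and 9.05, 7.78 and 8.75 with GFP. The groups overlapped, and replicate 1 was the highest array in both. The log2 difference was -0.48 ± 0.44 (SE, n = 3 per group), about as large as its error. It was -0.10 without GFP-positive replicate 2, -0.13 without GFP-negative replicate 1 and -0.74 without GFP-positive replicate 1.

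Csf2rb, the common beta chain that pairs with Csf2ra, was at 9.21, 8.20 and 8.22 in GFP-negative cells and at 8.66, 7.56 and 7.85 in GFP-positive cells. Its arrays fell in nearly the same order as those of Csf2ra, with replicate 1 highest in each group (Pearson r = 0.93, Spearman rho = 0.83 over 6 arrays, which share groups and replicate numbers). The log2 difference was -0.52 ± 0.40 (SE). Omitting GFP-negative replicate 1 gave -0.19, omitting GFP-positive replicate 2 gave -0.29, and omitting GFP-positive replicate 1 gave -0.84. Without that last array the Csf2rb groups did not overlap. Smaller groups separate more easily, and the share over all genes was not counted for that setting, so nothing is read from it.

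For both chains the second probe set did not follow the array order of the first. No correlation was computed between the second probe sets of Csf2ra and Csf2rb. The second Csf2ra probe set, 1420704_at, was at 6.79, 7.49 and 8.20 in GFP-negative and 6.35, 7.93 and 7.12 in GFP-positive cells, with replicate 1 lowest in each group. Its correlation with the first Csf2ra probe set was negative (Pearson r = -0.65, Spearman rho = -0.77 over 6 arrays). The second Csf2rb probe set, 1421326_at, was at 7.66, 8.33 and 8.99 and at 8.34, 7.27 and 7.68, and correlated with the first at r = 0.22 and rho = 0.37. Both pairs of probe sets gave group differences of one sign. They were -0.48 ± 0.44 (SE) and -0.36 ± 0.52 for Csf2ra, and -0.52 ± 0.40 and -0.56 ± 0.43 for Csf2rb. These differences are near their errors and the genes were picked on this contrast, so nothing is read from the shared sign. The order of single arrays was not shared.

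**Figure D3:**
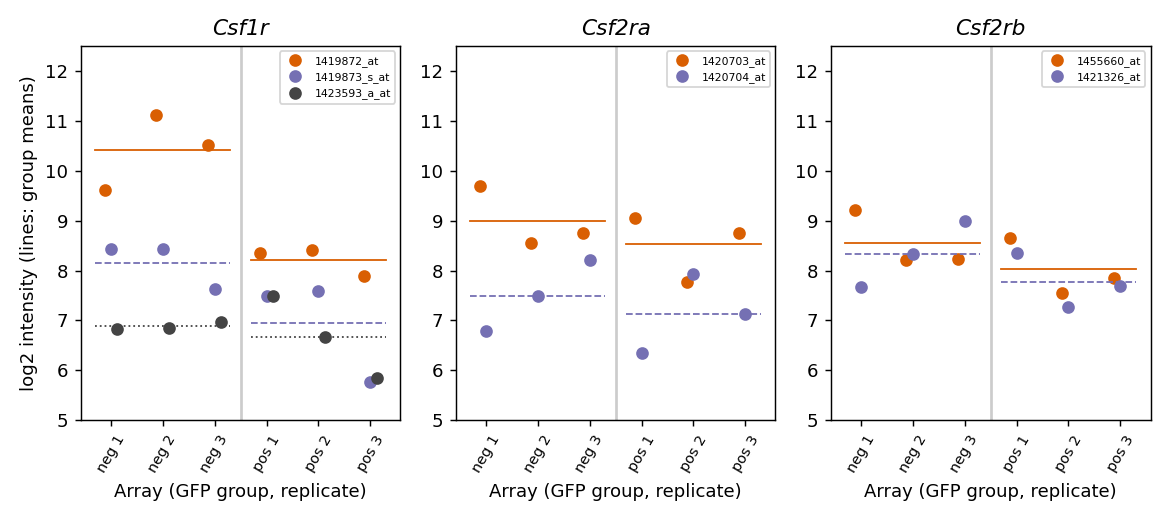
Log2 intensity (vertical axis) of each probe set of Csf1r, Csf2ra and Csf2rb on each array (horizontal axis, GFP-negative then GFP-positive), with lines for group means. Group means are lower in GFP-positive cells for all 7 probe sets, while replicate 1 of each group is the highest on 1420703_at and the lowest on 1420704_at of Csf2ra.

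Csf2rb2, the beta chain for IL-3 alone, was at 6.68, 8.27 and 6.20 in GFP-negative and at 6.21, 7.32 and 5.20 in GFP-positive cells. Replicate 2 was highest in both groups, and the groups overlapped. The log2 difference was -0.81 ± 0.73 (SE, n = 3 per group). It was -0.19 without GFP-negative replicate 2, -0.28 without GFP-positive replicate 3, -1.23 without GFP-negative replicate 3 and -1.34 without GFP-positive replicate 2. GFP-positive replicate 3, at 5.20, lay under 5.59, the highest level of Xist in male arrays, which serves as a guide to background. It lay above a lower guide of 4.69, the highest level of 3 Y-linked genes in female arrays. Csf2rb2 and Csf2rb are adjacent, with 0 protein-coding genes between them in RefSeq's mouse gene list. Their transcripts are close copies. Left out was 1 further probe set to which the platform gives several symbols, a member of the family among them. How far the remaining probe sets read the other copy was not tested.

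Comparing arrays of the same replicate number gave a lower GFP-positive value in 14 of 15 comparisons over the probe sets that stand for the 5 receptors, and in 49.6% of comparisons over all genes. The exception was Csf2ra in replicate 3, where the difference was 0.001. On the other 4 probe sets 9 of 12 comparisons were lower. Those higher were 1423593_a_at of Csf1r (0.65) and 1421326_at of Csf2rb (0.68) in replicate 1, and 1420704_at of Csf2ra (0.44) in replicate 2. The genes were picked on this contrast, so nothing is read from these counts. Where the groups did not overlap, as on the standing probe sets of Csf1r and Csf3r, a lower value was fixed in advance. Csf2rb differed by -0.55, -0.64 and -0.37 in numbers 1, 2 and 3, and Csf2rb2 by -0.47, -0.96 and -0.99. Csf3r differed by -0.70, -0.37 and -1.06, and Csf1r by -1.26, -2.71 and -2.63. With the replicate number as a block the standard errors were 0.17 in place of 0.40 for Csf2rb and 0.20 in place of 0.73 for Csf2rb2, so these beta chains varied less within replicate numbers than between them. Replicate 1 is also the female array of each group, and with sex as a covariate the standard error was 0.16 for Csf2rb and 0.78 for Csf2rb2. Replicate number and sex cannot be told apart for Csf2rb. The labels do not say that equal numbers share an animal or a day.

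Across the whole comparison no gene passed: at an adjusted p under 0.05, limma called 0 of 18194 genes higher (0%) and 0 lower (0%). Before adjustment, 606 genes (3.33%) were higher and 615 (3.38%) lower at p under 0.05. The sorted gene itself, Hes1, was at 6.78, 6.79 and 7.10 in GFP-negative and at 7.36, 7.09 and 7.84 in GFP-positive arrays (limma adjusted p = 0.78). Of the genes of the sort gate, Kit, the stem cell factor receptor, was at 10.47 to 10.72 in GFP-negative and 9.69 to 10.51 in GFP-positive arrays, and Ly6a was not analysed here. Of the lineage stain genes, Cd3e lay between 5.38 and 5.98, Cd8a between 6.44 and 6.93, Itgam between 5.21 and 7.65 and Cd4 between 8.23 and 9.92. Their median difference was -0.35 (4 measured of 7). GFP-positive replicate 1 stood apart in endothelial and stromal genes, with a list median of 10.13 against 5.63 to 7.55 in the other arrays, and a summed level of 14.38 (log2) against 11.05 to 11.68 in GFP-negative arrays. List medians below are also given without it, and the part of such cells in them was not tested.

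The ligands were close to background in these cells. Of the 6 measured, Csf2, Csf3, Il3, Il5 and Il34 stayed under 5.59 on all arrays, between 3.68 and 4.75. Csf1, the ligand of Csf1r, was the exception at 7.39, 7.26 and 7.34 in GFP-negative and 8.30, 7.23 and 7.48 in GFP-positive arrays, its highest value in GFP-positive replicate 1. All 6 had a positive mean difference, by 0.004 to 0.34 on the log2 scale, and 0 of the 6 had an unadjusted p under 0.05. Their median was 0.09, and 0.01 without GFP-positive replicate 1. The alpha chains that share the beta chain, Il3ra and Il5ra, had differences of -0.22 ± 0.21 and 0.44 ± 0.44 (SE). Their list median was 0.11, or 0.19 without GFP-positive replicate 1 and -0.08 without GFP-positive replicate 2. Il5ra reached 6.40 on the array of GFP-positive replicate 2 and lay between 4.80 and 5.19 on the other 5.

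Among the genes that carry or restrain the receptors' signal, small negative differences were more frequent than positive ones. Of 44 measured kinases, STAT factors, adaptors, effectors and negative regulators, 34 had a lower and 10 a higher mean where GFP was present. Their median was -0.21. With the ligands, partner chains and listed regulators of the receptor genes added, 47 of 68 were lower and 21 higher (median -0.19). Over all genes tested, 48.7% had a lower mean. The lists here and below were chosen with earlier results of these data known, so nothing is read from such counts. Before adjustment limma gave 3 lower and 0 higher of the 44 at p under 0.05, a share of 6.82%, which is near the 6.71% of all genes tested. Of the 68 it gave 4 lower and 1 higher, and after adjustment over all genes 0, the smallest adjusted p being 0.254. Leaving out GFP-positive replicate 1 gave 32 of the 44 lower with a median of -0.24, and 4 lower and 1 higher before adjustment. Of the 68 it gave 6 lower and 2 higher. These were 11.4% of the 44 and 11.8% of the 68, while 1368 of all 18194 genes had an unadjusted p under 0.05 in that setting.

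Among kinases and STAT factors, 10 of 13 measured had a lower GFP-positive mean (list median -0.15, and -0.16 without GFP-positive replicate 1), and 1 had an unadjusted p under 0.05. That gene was Syk, a tyrosine kinase that couples immune receptors to the cytoskeleton, at 10.04, 10.92 and 9.49 against 9.03, 9.17 and 9.37 in GFP-positive arrays (-0.96 ± 0.37, SE, limma adjusted p = 0.729). All 3 GFP-positive arrays lay below the GFP-negative ones. The Tec and Src kinases were at -0.64 ± 0.40 and -0.92 ± 0.60. Jak2, the kinase bound to the common beta chain, was at -0.30 ± 0.28. Stat5a and Stat5b, the main STAT factors of the IL-3 family, were at -0.10 ± 0.24 and -0.05 ± 0.19, and are named after their values were seen.

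Adaptors and effectors had a median of -0.21 (-0.29 without GFP-positive replicate 1), with 11 of 16 measured lower, 2 of them at an unadjusted p under 0.05. Over all genes, limma gave 3.38% lower at that threshold. Pik3cd, the leukocyte catalytic subunit of PI3-kinase, was at 9.25, 9.71 and 9.77 in GFP-negative and 8.67, 8.31 and 8.86 in GFP-positive arrays. The groups did not overlap, and the difference was -0.96 ± 0.23 (SE, limma adjusted p = 0.472). Pik3ap1, an adaptor that recruits PI3-kinase, was at -0.85 ± 0.22 (limma adjusted p = 0.511), again without overlap. Tyrobp, an adaptor that works with Csf1r in macrophages, was at 11.84 to 11.98 in GFP-negative and 11.52 to 11.68 in GFP-positive arrays, a small difference of -0.28 ± 0.14 with no overlap. Gab1, a docking protein for growth factor receptors, was at -1.04 ± 0.56, with its groups overlapping.

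Negative regulators of the receptors also lay lower, 13 of 15 measured, with a median of -0.23 and 0 at an unadjusted p under 0.05. Leaving out GFP-positive replicate 1 gave -0.30, with 1 higher and 2 lower before adjustment. Ptpn6, the phosphatase SHP-1 that dampens cytokine receptors, was at 10.57 to 10.76 in GFP-negative and 10.09 to 10.47 in GFP-positive arrays (-0.38 ± 0.17, SE, limma adjusted p = 0.77). Ptprc, the phosphatase CD45, was at -0.28 ± 0.16, and the ubiquitin ligase Cblb at -1.19 ± 0.63. Socs2, a cytokine-induced feedback inhibitor, lay the other way at 1.73 ± 0.95, with GFP-positive arrays at 6.40, 9.37 and 9.02. Its groups overlapped.

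Factors listed as known or possible regulators of the receptor genes had a median of -0.21 over 16 measured, 12 of them lower. Leaving out GFP-positive replicate 1 gave a median of -0.23. Whether each of them acts on these genes in these cells was not tested. Spi1, encoding PU.1, was at 9.66, 9.88 and 9.75 in GFP-negative and 9.02, 9.30 and 9.46 in GFP-positive arrays. No GFP-positive array reached the GFP-negative range, and the difference was -0.50 ± 0.17 (SE, limma adjusted p = 0.665). Id2, an inhibitor of E proteins, went the other way at 5.84, 6.80 and 5.72 against 8.06, 8.22 and 8.60 (2.17 ± 0.33, limma adjusted p = 0.254). Irf8, a factor of monocyte and dendritic cell fate, was at 10.39, 9.05 and 9.62 against 10.01, 6.68 and 8.01, with the groups overlapping (-1.45 ± 0.86). Myb, a factor of immature progenitors, was at -0.21 ± 0.14. Cebpa, needed for the granulocyte-monocyte step, was at -0.84 ± 0.62, and Runx1 at -0.22 ± 0.18, both named after their values were seen.

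**Figure D4:**
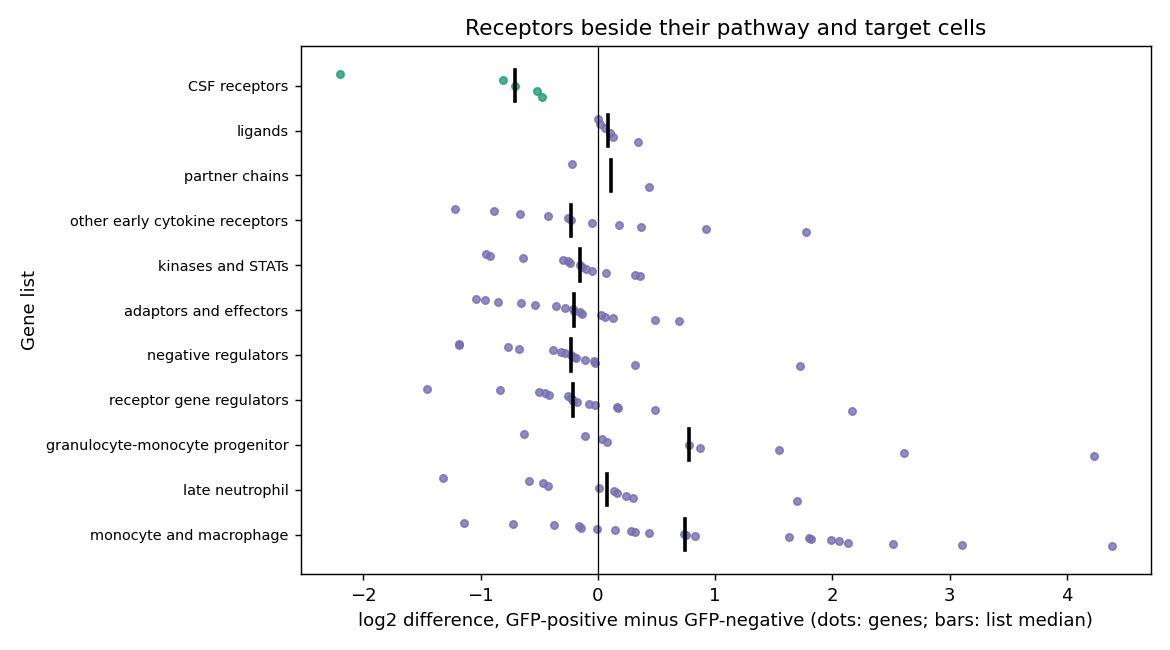
Log2 difference, GFP-positive minus GFP-negative (horizontal axis), of each measured gene (dots) in the receptor family and in lists of its pathway and target cells (vertical axis), with bars for list medians. The receptors have a median of -0.71, the signalling lists medians between -0.23 and -0.15, and granulocyte-monocyte progenitor and macrophage genes medians of 0.78 and 0.74.

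Other receptors of early progenitors did not share a direction. Of 11 measured, 7 were lower and 4 higher, with a median of -0.23. It was -0.34 without GFP-positive replicate 1, 0.04 without GFP-negative replicate 2, -0.02 without GFP-positive replicate 2, -0.08 without GFP-negative replicate 3 and -0.15 without GFP-positive replicate 3. Il1r1, a receptor for interleukin-1, was at 10.25, 10.64 and 9.59 in GFP-negative and 9.50, 8.40 and 8.92 in GFP-positive arrays (-1.22 ± 0.38, SE, limma adjusted p = 0.608). Flt3, a receptor tyrosine kinase of the same class as Csf1r, was at 12.04 to 12.13 against 10.51 to 11.99 (-0.89 ± 0.38, adjusted p = 0.759), without overlap. Epor, the erythropoietin receptor, was at 6.44 to 6.88 against 7.22 to 8.25 (0.92 ± 0.32, adjusted p = 0.666). Il6ra was at -0.67 ± 0.33.

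Over all 6 arrays, lists of genes from the cells that carry these receptors had medians above 0. For late neutrophil and dendritic cell genes the sign of the median changed with the arrays used. Without GFP-positive replicate 1 the medians were -0.60 and -0.07. Late neutrophil genes were at -0.21 and -0.24 without GFP-negative replicates 2 and 3, and at 0.23, 0.32 and 0.08 without GFP-negative replicate 1 and GFP-positive replicates 2 and 3. Dendritic cell genes lay between -0.06 and 0.06 in the other omissions. With all arrays, no gene in these lists passed the test over all genes. Of 9 measured granulocyte-monocyte progenitor genes 7 had a higher GFP-positive mean, and the list median was 0.78. Before adjustment 3 higher genes and 1 lower gene were at p under 0.05 by limma, beside 3.33% higher and 3.38% lower over all genes. Elane, the neutrophil elastase of primary granules, was at 8.37, 5.20 and 5.78 in GFP-negative and 11.81, 10.55 and 9.70 in GFP-positive arrays (4.23 ± 0.95, SE, limma adjusted p = 0.45). Ms4a3, a membrane protein of the same progenitors, was at 2.61 ± 0.51 (adjusted p = 0.392), and Hp, haptoglobin, at 1.54 ± 0.36 (adjusted p = 0.457). Cd34, a sialomucin of progenitors, was at -0.63 ± 0.17 (adjusted p = 0.528). Leaving out GFP-positive replicate 1 gave a median of 0.11, with 4 higher genes and 1 lower gene at p under 0.05 before adjustment.

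Late neutrophil genes, whose cells carry Csf3r, had a median of 0.07 over 10 measured and 0 with an unadjusted p under 0.05. Their summed level ran from 9.76 to 12.32 (log2) in GFP-negative and 10.17 to 13.01 in GFP-positive arrays. S100a9, a calcium-binding alarmin, was at 11.02, 6.47 and 7.57 and at 12.28, 8.74 and 9.11. Ngp, a granule protein, was at -1.32 ± 0.79 (SE), Cxcr2, a chemokine receptor, at -0.59 ± 0.46 and Cd177 at 0.30 ± 0.26. Of the 10 genes 2 stayed under the background guide of 5.59 on all arrays. Without GFP-positive replicate 1 the median was -0.60, and it was also below 0 without GFP-negative replicate 2 or 3.

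Monocyte and macrophage genes, whose cells depend on Csf1r, lay mostly, not wholly, in the direction opposite to it. Of 22 measured 16 had a higher GFP-positive mean, 8 of them and 0 of the lower ones at an unadjusted p under 0.05, and the median was 0.74. Over all genes, 48.7% had a lower mean, and limma gave 3.33% higher and 3.38% lower at that threshold. The list was chosen with earlier results known, so nothing is read from its counts. The summed level of the 22 was 12.39 to 12.55 (log2) in GFP-negative and 12.93 to 13.49 in GFP-positive arrays, and 1 of the 22 stayed under 5.59 throughout. Cd5l, a secreted macrophage protein, was at 5.54, 6.86 and 5.79 against 9.19, 9.45 and 8.87 (limma adjusted p = 0.177), and Hmox1, which breaks down heme, at 2.52 ± 0.40 (SE, adjusted p = 0.255). The chemokine receptor Ccr2 was at 2.13 ± 0.55 and the adhesion molecule Vcam1 at 2.06 ± 0.57. Lower means were found for Spic (-1.14), Itgam (-0.73), Cd68 (-0.37), Lyz2 (-0.17), Fcgr1 (-0.15) and Siglec1 (-0.01), the other 6 of the list, named after their values were seen. After adjustment over all genes 0 of the 22 passed. With GFP-positive replicate 1 omitted it was 0.34, with 7 higher genes and 0 lower ones at p under 0.05 before adjustment. The part of such cells in the receptor levels was not tested.

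For each receptor the 3 genes with the most similar course over the 6 arrays were found by Pearson r of log2 level among the genes at or above the median level (9096 for 4 of the receptors and 9097 for Csf2rb2). For Csf1r they were Npc2, Gas5 and Nlrc3 (r = 0.99 each), with differences between groups of -0.18, -0.16 and -1.44 (log2). For Csf3r they were Phtf2, Itch and Cd320, for Csf2ra Btg1, Hnrnpa0 and Trio, for Csf2rb Cables2, Tdp1 and Smarce1, and for Csf2rb2 Pqbp1, Rasal3 and Rassf2, with r from 0.98 to 0.99. Between 14 and 31 genes per receptor passed r = 0.95, and a match over 6 arrays picked from so many genes describes these arrays only.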

How the data were processed

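The authors deposited 1 linear intensity per probe set and array, made with RMA per the submitters' processing notes. RMA corrects background, quantile-normalises arrays and summarises probes, so it shrinks differences near background. For RMA, no version or setting is given in the sources used. Per the labels' protocols, 5 ng of RNA was amplified before labelling. Array medians lay between 74 and 78.5 and correlations between arrays from 0.925 to 0.951, and log2 was taken without a pseudocount. The platform table named 34958 of 45101 probe sets with 1 symbol. Probe sets with several symbols (932) or none listed (9211) were left out. The groups were compared with limma 3.58.1 (lmFit, eBayes, R 4.3.3) over 18194 genes, unfiltered, with Benjamini-Hochberg adjustment and a threshold of 0.05, and the code was tested on simulated data. Standard errors of probe sets that do not stand for a gene come from the same fit over all probe sets with 1 symbol. Figures used matplotlib 3.10.9.

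The members and gene lists were chosen with earlier results of these data known. Named genes were the receptors, ligands, partner chains, gate and lineage genes, Hes1, up to 4 genes of smallest p per other list, and 3 genes of most similar course per receptor. Others are marked as named after their values were seen. Promoter letters were chosen after matches had been seen. Housekeeping genes had a median difference of -0.03 over 5. The number of arrays limits the precision. Alternatives covered probe sets, a filter, normalisation, the variance prior, the replicate block, sex, male arrays and the omission of each array.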

Additional observations from a re-analysis of the deposited data

How the results depend on the processing

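All 5 receptor differences stayed negative under the 8 other settings tried on all or the male arrays and in all 6 omissions of an array. For several settings this was fixed in advance. The filter, the variance prior, the replicate block and the sex covariate can change only the error of a receptor's difference. Median centring shifts the differences of all genes by the same amount. For Csf1r and Csf3r, whose groups did not overlap, the sign was also fixed in every omission and in the male arrays. The range over the omissions was -2.60 to -1.85 for Csf1r, -0.74 to -0.10 for Csf2ra, -0.84 to -0.19 for Csf2rb, -1.34 to -0.19 for Csf2rb2, -0.91 to -0.45 for Csf3r and -0.91 to -0.59 for the median of the 5. Csf1r moved by more than its replicate spread with another probe set: -1.21 as the mean of its probe sets, and, chosen after seeing the data, -1.21 on 1419873_s_at and -0.22 on 1423593_a_at alone. The count of genes at an adjusted p under 0.05 by limma was 0, and 1 (Ermap) after removal of the dimmest genes, up to percentile 40 of mean level. It ranged from 0 to 5 over the omissions, the 5 being Ermap, Igk, Igkv8-30, Jchain and Pou2af1 without GFP-positive replicate 3. None of these is a receptor of the family.

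The replicate numbers were not taken as pairs: deviations of arrays with equal numbers correlated at 0.124, 0.050 and 0.092 for numbers 1, 2 and 3, although each array correlated best with its own number. With the replicate block the count of calls was 0, and the receptor differences were unchanged, as the design is balanced. The arrays' number, and for Csf2rb2 its nearness to background, limit the precision.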

Other observations

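The common beta chain also serves IL-3 and IL-5, which act on mast cells, basophils and eosinophils. Of 13 measured genes of these cells 10 had a higher mean in GFP-positive arrays, with a median of 0.20, and at an unadjusted p under 0.05 limma gave 4 higher and 1 lower. Over all genes, 48.7% had a lower mean, and 3.33% were higher and 3.38% lower at that threshold. The median of the 13 was 0.25 without GFP-positive replicate 1. Cma1, a mast cell chymase, was at 5.85, 5.85 and 6.03 in GFP-negative and 8.26, 7.67 and 7.68 in GFP-positive arrays (limma adjusted p = 0.157). Tpsb2, a mast cell tryptase, was at 0.81 ± 0.26 (log2 difference ± SE), and Hdc, which makes histamine, at 0.87 ± 0.30. Ms4a2, the beta chain of the IgE receptor, lay the other way at 7.41, 8.19 and 7.22 against 5.65, 6.01 and 7.05 (adjusted p = 0.618). The eosinophil gene Epx stayed between 4.53 and 5.13, under the background guide of 5.59, and is named after its values were seen.

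Dendritic cell genes, some of whose cells need the granulocyte-macrophage factor, had a median of 0.01 over 12 measured, and of -0.07 without GFP-positive replicate 1. The sign of that median changed with other omissions as well. Ly6d, a surface protein of lymphoid progenitors, was at 7.06, 7.05 and 6.90 against 9.22, 10.33 and 8.51 (limma adjusted p = 0.392), and Cd7 was at 1.20 ± 0.43 (SE). The integrin chain Itgax was at -0.87 ± 0.59 and the factor Zbtb46 at 0.84 ± 0.69. Of genes outside the myeloid lineages, 9 of 9 measured B and plasma cell genes had a higher GFP-positive mean (median 2.24, and 2.27 without GFP-positive replicate 1). The smallest unadjusted p among them was that of Ebf1, at 2.24 ± 0.27, and the largest difference that of Pou2af1, at 4.82 ± 0.66. A higher mean was also found for 7 of 8 erythroid genes (median 1.86, and 1.95 without that array), with the smallest p for Ermap at 4.49 ± 0.30 (limma adjusted p = 0.0956). Over all genes tested, 48.7% had a lower mean. The 8 T and NK cell genes had a median of 0.20 (0.16 without that array), with Gzma at 3.17 ± 0.34. The 14 endothelial and stromal genes had a median of 1.33, and of 0.08 without GFP-positive replicate 1, and Tek was at 2.82 ± 0.45.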
